A study of Mus musculus with 2 samples.

Results

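A set of 81 genes of amino acid supply and amino acid stress was examined among the 19505 genes measured in cultured mouse macrophages with whole-transcript arrays. Symbols picked the amino acid transporter families SLC1, SLC7 and SLC38 together with Slc3a2, and the aminoacyl-tRNA synthetases that follow the usual naming pattern. A further 14 genes were named one by one for their link to the ATF4 stress response. The set was chosen with earlier results of these data known. It held 34 transporters, 32 synthetases, the 14 stress response genes and Slc7a6os, which matched by its letters but is a neighbour of Slc7a6 and no transporter. The cytosolic synthetase genes Aars and Dars were not analysed here.

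The study compared 2 genotypes with 1 array each. The first, given in the labels as LysM (+);MC4RTB/TB, is called LysM (+) here, and the second, MC4RTB/TB, is called TB/TB. Both are homozygous for the TB allele of the melanocortin 4 receptor gene, and in background terms such an allele carries a transcription block that Cre can excise, while LysM, or Lyz2, is a promoter often used for Cre in myeloid cells. Neither is spelled out in the labels, which give no age, number of animals or pooling. By its title the study concerns the receptor's function in monocytes. Bone marrow cells of both genotypes were cultured with 10% serum, received 25 ng/mL of the macrophage growth factor M-CSF on days 0 and 3, were used from day 5, and had no further treatment. With 1 array per group no difference has a replicate check, no test was run, and every value below describes these 2 arrays. The number of arrays limits the precision.

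Cells take up amino acids through transporters of several families, and aminoacyl-tRNA synthetases join each amino acid to its tRNA for protein synthesis. When amino acids run short the kinase GCN2 (Eif2ak4), and when proteins misfold in the endoplasmic reticulum the kinase PERK (Eif2ak3), phosphorylate the initiation factor eIF2. That slows protein synthesis in general but favours translation of the transcription factor ATF4, whose known targets include asparagine synthetase, many transporters and many cytosolic synthetases. ATF4 is controlled largely at translation, and arrays measure RNA only. In macrophages these genes serve growth, activation and the supply of cystine for glutathione.

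Values are deposited log2 expression values, and differences are LysM (+) minus TB/TB. Folds take the values as log2, which the sources do not state outright. A gene was counted when it differed by 1.5-fold or more, a log2 difference of 0.58, and its mean over both arrays reached the brightness floor of 6.12, the median of the named probe sets. The 23 background control probe sets reached 6.81. Of the 81 members 53 reached the floor and 28 did not, and both values of 33 members lay within the range of the controls. A total of 11 members were counted higher in LysM (+) and 0 were counted lower. The 11 were the asparagine synthetase gene Asns, the transporter genes Slc7a1, Slc7a5 and Slc7a6, the cytosolic synthetase genes Eprs, Iars, Lars, Tars, Vars and Yars, and the mitochondrial synthetase gene Lars2. Of the 9756 measured genes that reached the floor, 10.6% were counted higher and 4.38% lower, against 20.8% of the 53 members counted higher. With no floor the same 11 of 81 members (13.6%) were at least 1.5-fold higher, against 6.98% of all 19505 genes, and 0 members were as much lower, against 5.51%. Among genes with a mean of at least 8, 8 of 37 members were counted higher and 0 lower, against 10.3% and 3.15% of all such genes. The median difference over all 81 members was 0.04, against -0.01 for all measured genes. Over those at the floor it was 0.13 for members and 0.07 for all genes, and the counted members were a minority of the set.

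**Figure D1:**
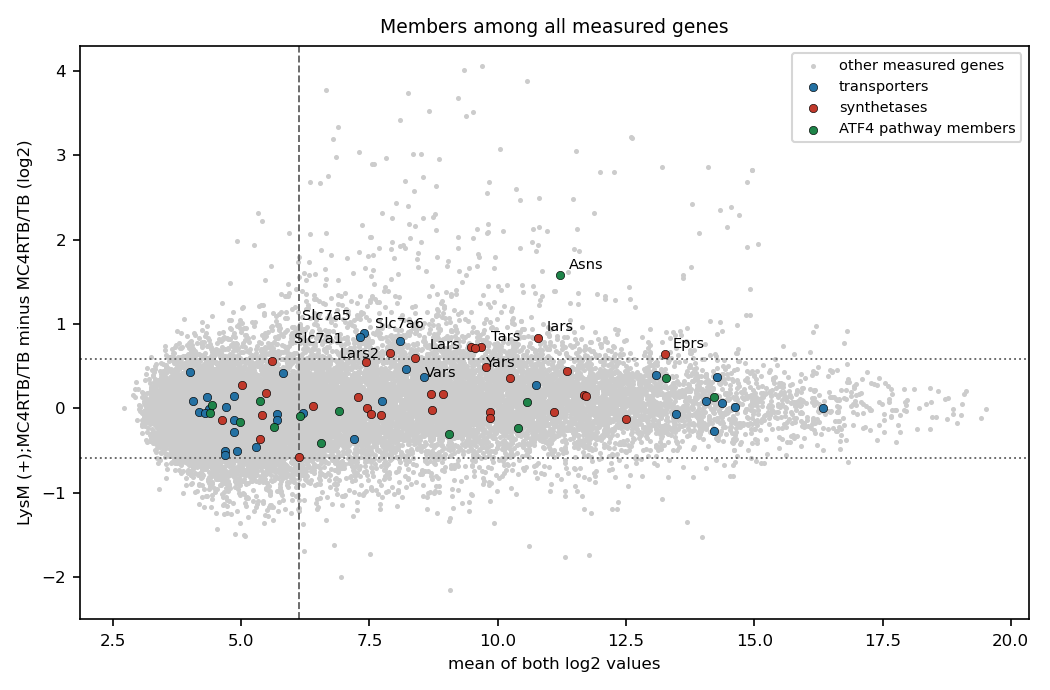
Each point is a gene, with the mean of its 2 log2 values on the x axis and its difference, LysM (+);MC4RTB/TB minus MC4RTB/TB, on the y axis; dotted lines mark 1.5-fold, the dashed line marks the floor of 6.12, and labels name the 11 counted members. Members at the floor pass the upper dotted line 11 times and the lower one 0 times.

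Both arrays carried macrophage RNA. All 7 measured macrophage markers reached the floor, with differences between -0.57 and 0.24. All 3 B cell, all 3 erythroid and all 4 dendritic cell markers, and all 4 T cell markers, had both values within the control range, while 3 of 4 fibroblast markers reached the floor and 1 was counted lower. Mc4r, at 4.45 in LysM (+) and 4.57 in TB/TB, also lay within it, so the targeted gene gave no check of the labels. Neutrophil granule markers had a median difference of 0.45 over 8 genes, with 3 counted higher. These were Ltf, and Elane and Retnlg, whose TB/TB values (6.46 and 6.29) lay within the control range. The brighter Ngp, S100a8, S100a9 and Mpo were not counted but lay above the control range on both arrays. Ngp had 16.32 in LysM (+) and 15.92 in TB/TB, S100a9 13.35 and 12.85, S100a8 13.21 and 12.92, and Mpo 9.99 and 10.29. Of the 8 neutrophil markers 7 reached the floor, so both arrays also carried neutrophil marker RNA. Cell division genes gave the largest median of the lists examined: all 11 measured were counted higher in LysM (+), by a median of 2.02. Interferon response genes had a median of -0.68, with 6 of 11 counted lower. The part of cell division, of neutrophil RNA or of the interferon response in the differences below was not tested. In such bulk RNA, fewer cells of a type and less RNA per cell cannot be told apart.

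Asns gave the largest difference among the members. This gene encodes the enzyme that makes asparagine from aspartate and glutamine and is a classical ATF4 target. Its log2 value was 12.00 in LysM (+) and 10.43 in TB/TB, both well above the control range, a difference of 1.58 or 2.98-fold. It was the only member (1 of 81) past 2-fold. The enzymes of the set that make cysteine from homocysteine were dim. Cth, cystathionine gamma-lyase, had 5.41 and 5.33, and Cbs, cystathionine beta-synthase, had 4.36 and 4.42, in LysM (+) and TB/TB respectively.

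The transcription factors and kinases upstream of Asns differed by less than 1.5-fold. Atf4 itself had 13.46 in LysM (+) and 13.10 in TB/TB, a difference of 0.36 that falls short of 1.5-fold. Atf3, a stress-induced partner of the same family, had 14.29 and 14.15, and Atf5, another family member translated under eIF2 stress, had 6.89 and 6.93. Eif2ak3 (PERK) differed by 0.08, from 10.61 to 10.54, and Eif2ak4 (GCN2) by -0.23, with 10.27 in LysM (+) and 10.50 in TB/TB. None of the 6 sensors and factors was counted (0 genes), with Ddit3 taken as the mean of its probe sets. The median difference of the 6 was 0.02. Of all genes at the floor 10.6% were counted higher and 4.38% lower, so a count of 0 among so few genes says little.

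Ddit3, which encodes the stress factor CHOP, was the only member (1 gene) with more than 1 probe set, and its probe sets disagreed. The first had 10.27 in LysM (+) and 10.22 in TB/TB, a difference of 0.05. The second, which the array's design lists without a map position, had 7.51 and 8.17. Its difference of -0.65 was past 1.5-fold on its own. The mean of both probe sets, used here, differed by -0.30, so no direction is given for Ddit3.

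The other stress response genes among the members gave signal near background. Trib3, a pseudokinase that feeds back on ATF4, had 6.35 in LysM (+) and 6.76 in TB/TB. Sesn2, a leucine sensor that restrains mTORC1, had 6.09 and 6.19. Chac1, which degrades glutathione, had 5.53 and 5.75, and Ppp1r15a, the phosphatase subunit GADD34 that reverses eIF2 phosphorylation, had 4.45 and 4.40. Ddit4, the mTORC1 inhibitor REDD1, had 4.89 and 5.06. Apart from Asns, all 7 targets and enzymes had both values within the control range, so their signal could not be told from background.

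The best known ATF4 binding element is a composite of a C/EBP and an ATF half-site, written here as TGATGNAA, and it was looked for on both strands of RefSeq promoter windows of GRCm38.p6 that run from 250 bases before to 50 after each annotated start. Windows were found for 62 of the 81 members. Of these 11 (17.7%) held at least 1 match, against 4.51% of all 27025 genes with a window and 3.95% of the 15691 measured ones. Among the 8 counted members with a window 4 held a match: Asns, Iars, Tars and Yars. Several members were included because they are known ATF4 targets, so these shares are a description. A match is a stretch of letters and was not shown to be bound in these cells.

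The 150 bases before the annotated start of Asns and of Slc7a11 are shown because Asns had the largest difference and Slc7a11 was the member with a pair of matches within 70 bases of its start. Capitals mark the matches, on either strand. The Asns stretch lies at chr6:7693210-7693359 on the minus strand and its match begins 23 bases before the start. The Slc7a11 stretch lies at chr3:50443614-50443763 on the minus strand, with matches that begin 66 and 47 bases before the start, the second of them on the opposite strand.
Asns: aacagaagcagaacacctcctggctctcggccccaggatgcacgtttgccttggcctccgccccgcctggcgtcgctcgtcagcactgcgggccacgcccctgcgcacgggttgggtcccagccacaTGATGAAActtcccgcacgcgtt
Slc7a11: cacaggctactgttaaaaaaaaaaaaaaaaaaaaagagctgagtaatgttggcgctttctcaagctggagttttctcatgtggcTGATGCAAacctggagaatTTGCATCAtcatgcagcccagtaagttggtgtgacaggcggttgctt

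The remaining counted members with a match carried it next to the start, 15 bases before it in Tars and 4 and 8 bases after it in Yars and Iars. They are set beside Gars, Atf3, Trib3 and Chac1, whose matches begin 30, 110 and 193 bases before the start in Gars, Atf3 and Chac1 and 15 bases after it in Trib3, and which were not counted. Each window spans 30 bases with the match in capitals. Their positions are chr13:49682126-49682155 for Iars (plus strand), chr15:11399655-11399684 for Tars (minus strand), chr4:129189895-129189924 for Yars (plus strand), chr6:55037960-55037989 for Gars (plus strand), chr1:191183425-191183454 for Atf3 (minus strand), chr2:152344028-152344057 for Trib3 (minus strand) and chr2:119351038-119351067 for Chac1 (plus strand).
Iars: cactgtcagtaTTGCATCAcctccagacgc
Tars: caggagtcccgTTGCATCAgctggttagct
Yars: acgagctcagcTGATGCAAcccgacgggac
Gars: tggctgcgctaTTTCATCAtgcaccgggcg
Atf3: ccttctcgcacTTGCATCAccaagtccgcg
Trib3: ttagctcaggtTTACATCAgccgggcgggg
Chac1: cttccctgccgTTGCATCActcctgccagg
Matches thus occurred in counted and in uncounted members, and the differences of these 7 genes ranged from -0.41 for Trib3 to 0.84 for Iars. Of these genes Trib3 and Chac1 had both values within the control range, so their differences carry no direction. Slc1a4 and Slc7a7 held the remaining matches. For Vars, Lars and Slc7a5, which were counted, no window was matched, and for Eprs, Lars2, Slc7a1 and Slc7a6 the window held none of these letters.

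**Figure D2:**
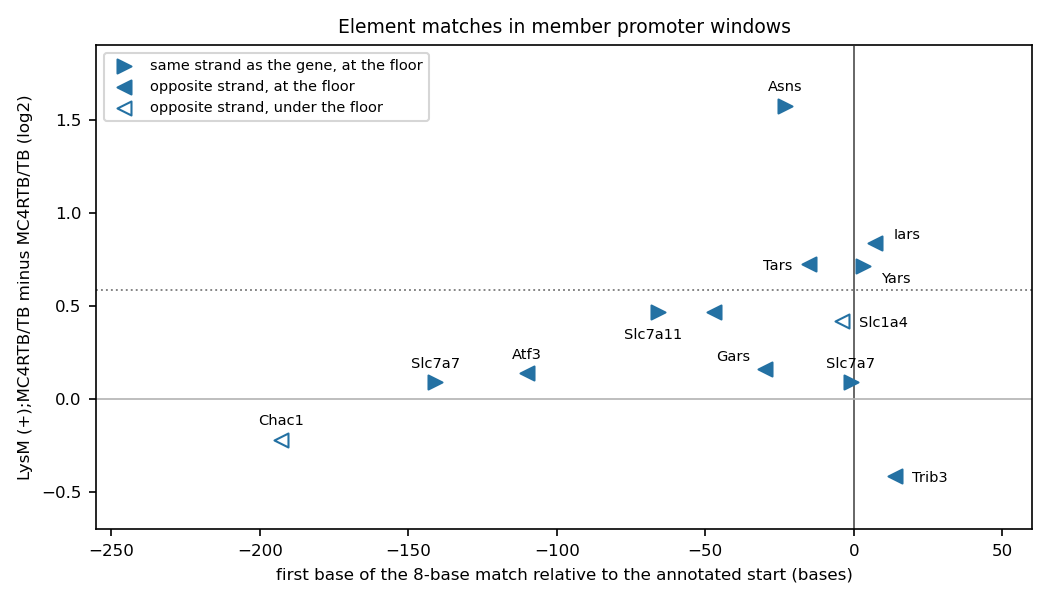
Each triangle is a match to the 8-base element in a member's promoter window, placed by its first base relative to the annotated start (x axis, bases) and by the gene's log2 difference (y axis); triangles pointing right lie on the gene's strand, open ones belong to genes under the floor, and the dotted line marks 1.5-fold. Of 13 matches 10 begin within 70 bases of the start, and the genes carrying them differ by between -0.41 (Trib3, within the control range) and 1.58 (Asns).

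Cytosolic synthetases had a median difference of 0.30, the highest of the 8 role groups when every member is included. Over members at the floor the light-chain transporters (0.42) and the cationic transporters (0.85, 1 gene) were higher. All 16 cytosolic synthetases reached the floor. Of these 6 (37.5%) were counted higher and 0 lower, against 10.6% and 4.38% of all genes at the floor. A difference above 0 was found for 11 (68.8%), against 57.8% of all such genes. Iars, the isoleucyl-tRNA synthetase, had 11.21 in LysM (+) and 10.38 in TB/TB, or 1.78-fold. Tars, for threonine, had 10.03 and 9.31 (1.66-fold), and Lars, for leucine, had 9.83 and 9.11 (1.65-fold). These values were above the control range on both arrays.

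Yars, for tyrosine, had 9.91 in LysM (+) and 9.20 in TB/TB, or 1.64-fold. Eprs, whose product joins glutamate and proline to their tRNAs, had 13.57 and 12.93 (1.56-fold). Vars, for valine, had 8.68 and 8.09 and was just past the line at 1.51-fold. Eprs and Vars were the counted members closest to the line, and after loess both fell short of it, at 0.57 and 0.52.

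The other cytosolic synthetases lay below 1.5-fold. The genes Kars and Gars also supply the mitochondrial enzyme. Kars (lysine) and Rars (arginine) were 1.41-fold and 1.36-fold higher, with values of 10.03 and 9.53 for Kars and 11.57 and 11.13 for Rars. Cars, Gars and Nars, for cysteine, glycine and asparagine, differed by 0.17, 0.16 and 0.14. Mars1 (methionine), Hars (histidine) and Sars (serine) differed by at most 0.04 in size. Qars, for glutamine, had 12.44 and 12.56, and Wars, for tryptophan, had 9.78 and 9.90. Wars is also known as an interferon-induced gene. Its difference of -0.12 was not counted. Of the 11 interferon response genes 10 had a difference below 0, and 6 were counted lower.

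Part of the cytosolic synthetases sit in a multi-synthetase complex held together by the scaffold proteins AIMP1, AIMP2 and EEF1E1. Its 7 measured enzymes (Eprs, Iars, Kars, Lars, Mars1, Qars and Rars) had a median difference of 0.49. The 9 enzymes outside it had a median difference of 0.16. In each set 3 were counted higher, 42.9% of the 7 and 33.3% of the 9, against 10.6% of all genes at the floor. Among the scaffolds Aimp2 had 10.03 in LysM (+) and 9.13 in TB/TB (1.87-fold) and Eef1e1 had 11.01 and 10.24 (1.71-fold), while Aimp1, with both values in the control range, had 6.50 and 6.69. The phenylalanyl-tRNA synthetase subunits Farsa and Farsb, whose symbols fall outside the naming pattern, differed by -0.03 and 0.07. Xpot, which exports tRNA from the nucleus, had 9.79 and 9.06 (1.66-fold).

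Mitochondrial synthetases, which serve the small set of proteins made inside mitochondria, had a median difference of 0.08. Of 16 members 10 reached the floor. Of these 1 (10%) was counted higher and 0 lower, against 10.6% and 4.38% of all genes at the floor. Lars2, the mitochondrial leucyl enzyme, had 8.23 in LysM (+) and 7.58 in TB/TB, or 1.57-fold. Rars2 had 7.71 and 7.16 (1.47-fold), and Iars2 had 10.41 and 10.06 (1.28-fold). Vars2 stood out on the other side with 5.84 and 6.42, 1.49-fold lower, but both values were within the control range.

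The remaining mitochondrial enzymes at the floor, Cars2, Fars2, Hars2, Sars2, Tars2 and Yars2, differed by between -0.08 and 0.17. The 6 that did not reach the floor ran from Pars2, at 5.19 and 5.56, to Wars2, at 5.89 and 5.33. Enzymes for the same amino acid did not always have like differences. Of 12 such pairs the cytosolic enzyme had the greater difference in 8 and the mitochondrial one in 4. The median gap, cytosolic minus mitochondrial, was 0.05. Some mitochondrial enzymes of these pairs, such as Vars2 and Wars2, had both values within the control range. For threonine, Tars and Tars2 differed by 0.73 and -0.07, whereas for leucine, Lars and Lars2 differed by 0.72 and 0.65. For arginine, Rars and Rars2 differed by 0.44 and 0.55. All values of these threonine, leucine and arginine enzymes were above the control range.

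**Figure D3:**
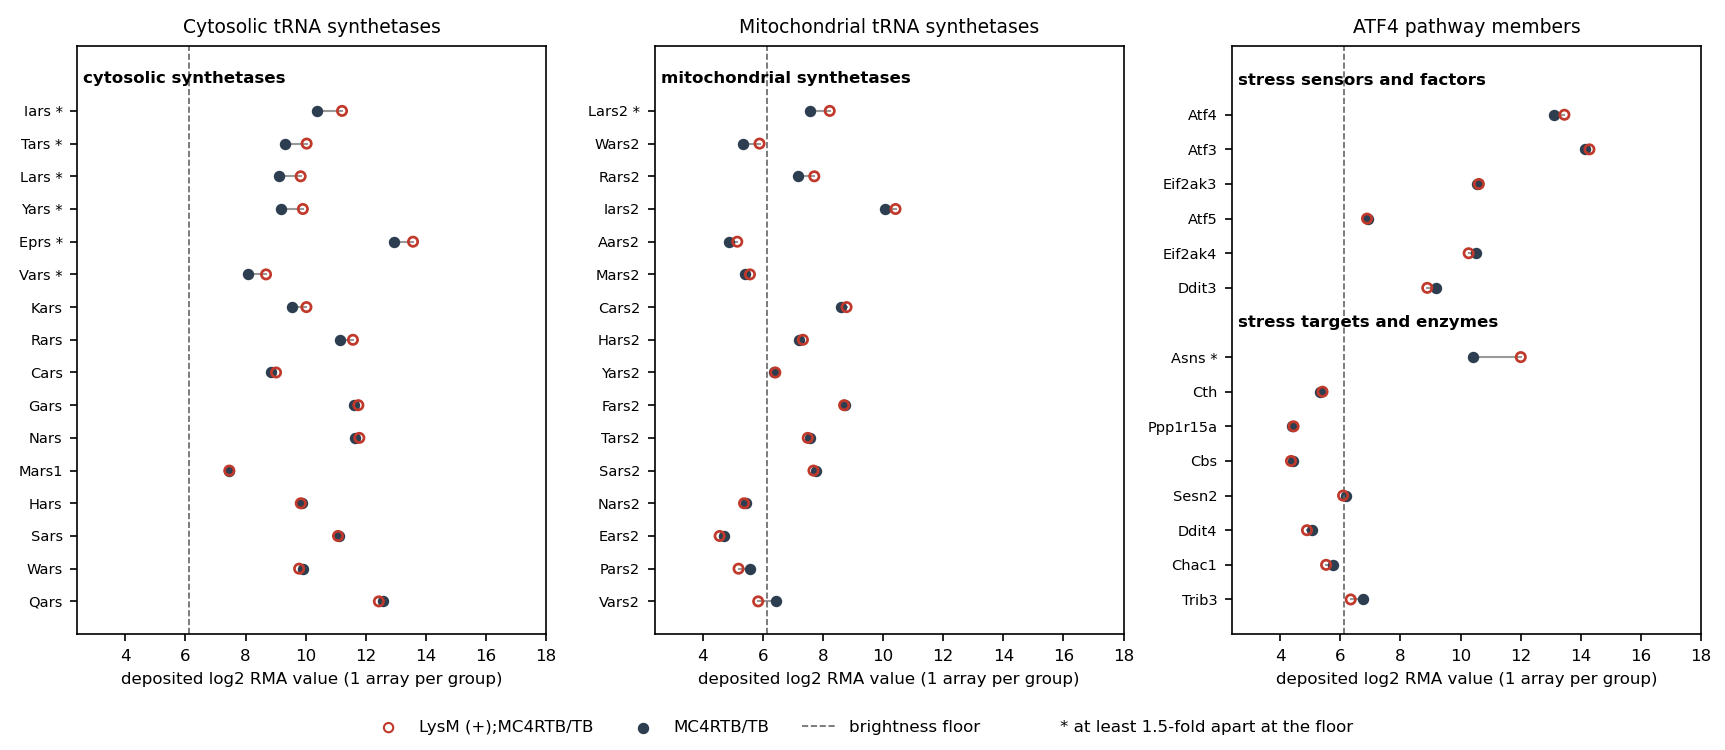
Deposited log2 values (x axis) of the cytosolic synthetases, the mitochondrial synthetases and the ATF4 pathway genes, with open circles for LysM (+);MC4RTB/TB, filled circles for MC4RTB/TB, 1 array each and no error bars; the dashed line is the floor of 6.12 and asterisks mark counted genes. The open circle lies to the right for 11 of 16 cytosolic enzymes, and Asns has the widest gap, from 10.43 to 12.00.

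Transporters of the SLC7 family fall into a cationic branch, best known for carrying arginine and lysine, and a light-chain branch, most of whose members work as a pair with the heavy chain 4F2hc encoded by Slc3a2. Slc7a1, the cationic transporter CAT1, had 7.73 in LysM (+) and 6.88 in TB/TB, a 1.80-fold difference. The TB/TB value lay just above the control maximum of 6.81. Slc7a2, the cationic transporter that activated macrophages use to bring in arginine, had 4.72 and 5.00, within the control range on both arrays. The rest of that branch, Slc7a3, Slc7a4 and Slc7a14, was likewise within it, so 1 of 5 cationic members had both values above the control range.

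In the light-chain branch Slc7a5, the transporter LAT1 for leucine and other large neutral amino acids, had 7.84 in LysM (+) and 6.94 in TB/TB, or 1.86-fold. Its TB/TB value also lay just above the control maximum of 6.81. Slc7a6, which exchanges cationic for neutral amino acids, had 8.49 and 7.69, or 1.74-fold. Slc7a11, the cystine importer xCT, had 8.44 and 7.97, a difference of 0.47 that was not counted. The gene of their common heavy chain, Slc3a2, had 16.35 on both arrays.

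Both other light chains at the floor were short of 1.5-fold. Slc7a7, the cationic and neutral exchanger known as a macrophage gene, had 14.10 in LysM (+) and 14.01 in TB/TB, and Slc7a8 (LAT2) had 14.45 and 14.09. The other 5 light chains, Slc7a9, Slc7a10, Slc7a12, Slc7a13 and Slc7a15, had both values within the control range and differed by between -0.56 and 0.43. The branch had a median difference of 0.09 over 11 genes. Of its 6 genes at the floor 2 (33.3%) were counted higher and 0 lower, against 10.6% and 4.38% of all such genes. Slc7a6os, whose locus adjoins Slc7a6, differed by 0.02, against 0.80 for Slc7a6.

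In the SLC1 and SLC38 families 3 of 7 and 7 of 11 members reached the floor, and 0 were counted; with 10.6% of all genes at the floor counted higher, so few genes say little about either family. Slc1a5, the glutamine transporter ASCT2, had 8.74 in LysM (+) and 8.37 in TB/TB, or 1.29-fold. Slc1a4 (ASCT1), which carries alanine, serine and cysteine, had 6.03 and 5.61, under the floor. The glutamate transporters Slc1a1, Slc1a2, Slc1a3 and Slc1a6 had both values in the control range, with differences between -0.45 and 0.13, and Slc1a7 had 7.80 and 7.71.

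Among the sodium-coupled neutral amino acid transporters Slc38a1 (SNAT1) had 13.29 in LysM (+) and 12.89 in TB/TB, or 1.32-fold. Slc38a2 (SNAT2), the family member best known to be induced by amino acid shortage, had 14.40 and 14.33. Slc38a9, the lysosomal arginine sensor of mTORC1, was slightly lower, at 14.08 and 14.36. Slc38a5 was lower too, at 7.01 and 7.38, and Slc38a7, a lysosomal glutamine exporter, was higher, at 10.89 and 10.61. Slc38a6 and Slc38a10 differed by 0.01 and -0.07, and the other 4 members were dim. The family's median difference was -0.01.

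**Figure D4:**
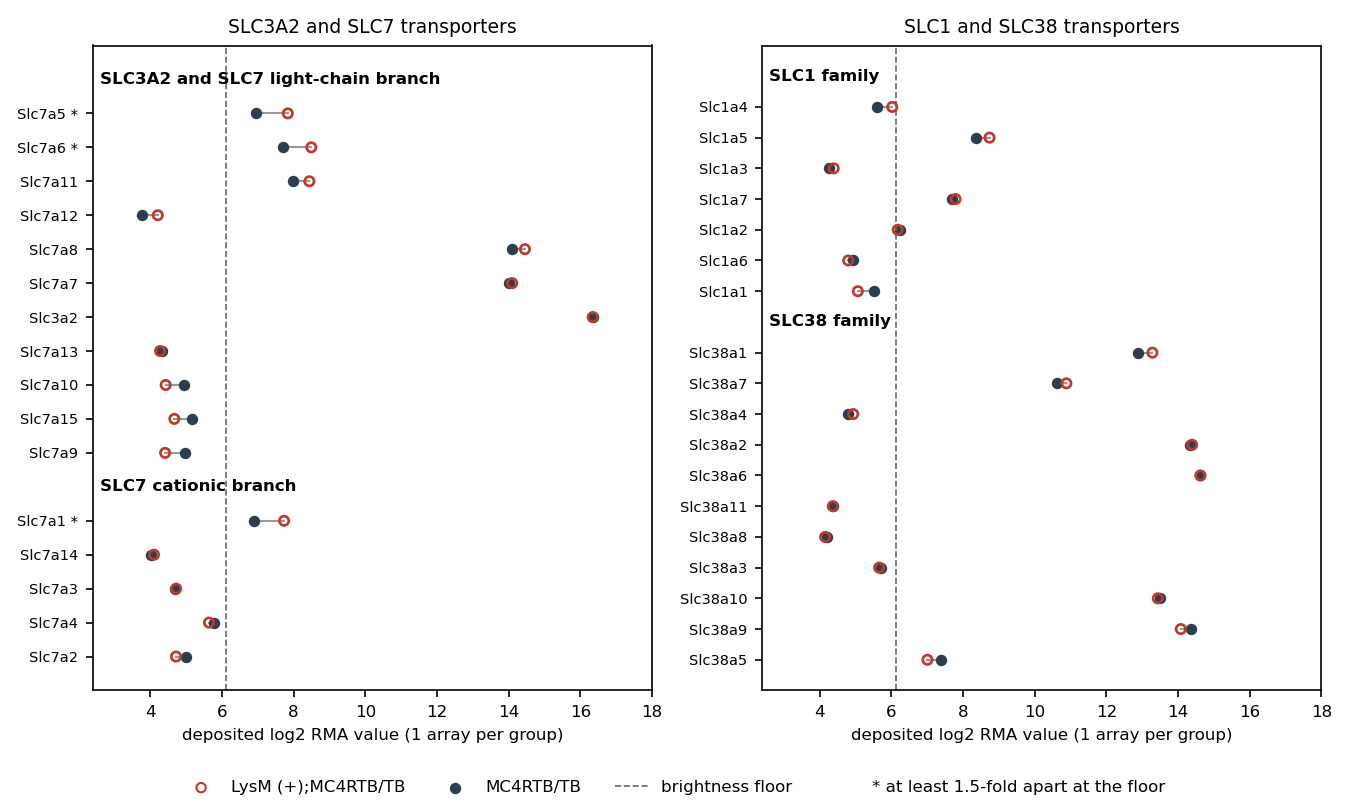
Deposited log2 values (x axis) of the 34 transporter genes, with open circles for LysM (+);MC4RTB/TB, filled circles for MC4RTB/TB, 1 array each and no error bars; the dashed line is the floor of 6.12 and asterisks mark counted genes. Slc7a5, Slc7a6 and Slc7a1 have open circles clearly to the right, whereas both circles of Slc3a2 coincide at 16.35. The filled circles of Slc7a5 (6.94) and Slc7a1 (6.88) lie just above the control maximum of 6.81.

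Apart from cell division, the companion list with the largest share counted higher held enzymes that make serine, glycine, one-carbon units and proline. Many of these are known ATF4 targets. Of 13 measured genes 10 reached the floor, and the median difference was 0.46. At the floor 6 (60%) were counted higher and 1 lower, against 10.6% and 4.38% of all genes at the floor. Mthfd2, the mitochondrial folate dehydrogenase, had 9.56 in LysM (+) and 8.34 in TB/TB (2.32-fold), and Shmt2, which splits serine into glycine in mitochondria, had 9.74 and 8.57 (2.25-fold). Psat1, the aminotransferase of serine synthesis, had 9.77 and 8.72 (2.07-fold), whereas Psph, which catalyses the last step of that pathway, was lower, at 9.79 and 10.46 (1.59-fold). Phgdh, the first enzyme, was under the floor at 5.71 and 5.25. Aldh18a1, the first enzyme of proline synthesis, had 7.26 and 6.24, the latter within the control range. Shmt2 and Mthfd2 also serve nucleotide synthesis in dividing cells, and cell division genes were higher on the same array, as given above. The part of cell division in the differences of Shmt2 and Mthfd2 was not tested.

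Other reported ATF4 or CHOP targets had a median difference of 0.04 over 16 measured genes. Of the 11 at the floor 1 (9.09%) was counted higher (Xpot) and 1 lower, against 10.6% and 4.38% of all genes at the floor. The lower gene was the growth arrest gene Gadd45a, at 8.75 in LysM (+) and 9.88 in TB/TB (2.19-fold). Nupr1 had 8.88 and 8.64, Cebpb 7.88 and 7.83, Cebpg 10.42 and 10.47, and Eif4ebp1, a translation repressor, 10.43 and 10.41. Genes of the eIF2 machinery had a median of 0.06 over 11 genes with 0 counted, including the kinases Eif2ak1 (-0.22) and Eif2ak2 (0.27). Beside the shares of all genes, 0 of 11 says little.

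The ATF6 and XBP1 branches of the unfolded protein response, which act beside PERK, had a median difference of 0.21 over 12 genes. All 12 reached the floor and 1 (8.33%) was counted higher, against 10.6% of all genes at the floor. The counted gene was Dnajc3, an endoplasmic reticulum cochaperone, at 11.64 in LysM (+) and 10.85 in TB/TB (1.73-fold). Of the 12 genes 10 had a difference above 0, among them Creld2 (0.58) and Hyou1 (0.56), both just short of 1.5-fold. Hspa5, the chaperone BiP whose level is the usual readout of such stress, had 16.89 and 16.87. The 2 genes below 0 were Xbp1, at 14.51 and 14.63, and Atf6, at 13.54 and 13.64.

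**Figure D5:**
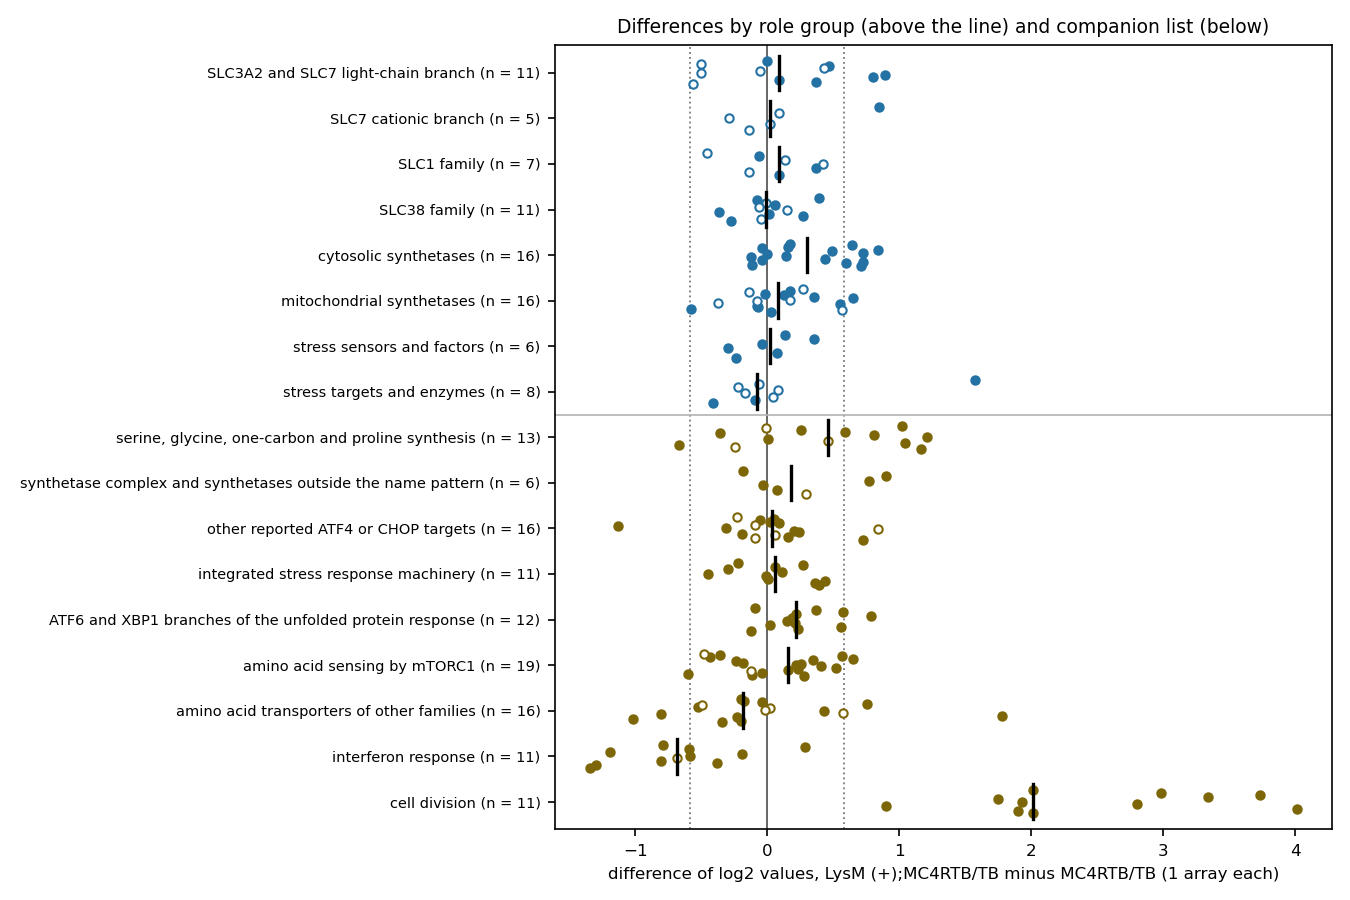
Log2 differences, LysM (+);MC4RTB/TB minus MC4RTB/TB (x axis), of the 8 role groups of members and, below the grey line, the companion lists; each point is a gene, open where its mean did not reach the floor, black bars are medians and dotted lines mark 1.5-fold. Cytosolic synthetases (median 0.30) and serine, glycine, one-carbon and proline synthesis genes (0.46) lie to the right of the other role groups and pathway lists when genes under the floor are included, and cell division genes (2.02) lie furthest to the right; over members at the floor the light-chain (0.42) and cationic (0.85, 1 gene) transporters exceed the cytosolic synthetases.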

How the data were processed

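The authors deposited 1 RMA value per probe set and array, read here as log2 because RMA gives log2 values. Per the submitters' processing notes, Affymetrix Expression Console and RMA were used; versions and genome build are not given in the sources. RMA removes background, matches the arrays' distributions and combines probes, which can compress fold changes. The values reached 19.5 on both arrays, higher than is usual for RMA, and a further transformation would change folds but not directions. Of 28846 probe sets, 19572 carried 1 gene symbol in the platform annotation; all matched the RefSeq table of GRCm38.p6 by Entrez ID. A gene's value is the mean of its probe sets (55 genes had several).

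Genotype labels gave the groups. Differences were computed with Python 3.11.15 (pandas 2.3.3, statsmodels 0.14.6 for loess, span 0.4); with 1 array per group there is no test. The counting steps were checked on simulated data with planted differences well past the 1.5-fold line. That check cannot say how reliable the counted genes are. A floor on the mean of both values replaced one on the brighter value, which a gene can reach through the difference itself. Members, lists and the naming rule (every counted member, the extremes of each role group, Atf4 and related genes, up to 4 counted genes per companion list) were chosen with earlier results of these data known. Promoter sequences are RefSeq's.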

Additional observations from a re-analysis of the deposited data

How the results depend on the processing

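Counts and medians were recomputed with the differences centred, with quantile normalization, with loess, with the brightest probe set per gene, with other filters and with a fold of 2. The 11 counted members were the same genes after centring, with the brightest probe set, with the floor on the brighter value and with no filter. Quantile normalization left 10 of them, without Vars (0.54), and loess left 9, without Vars (0.52) and Eprs (0.57). At a fold of 2 only 1 member, Asns, was counted, and over all genes 304 were counted higher and 66 lower in place of 1031 and 427. With a mean of at least 8 in place of the floor, a filter chosen after seeing the data, 8 of 37 members were counted higher, and over all genes 681 were higher and 209 lower. With no filter 1075 genes were as much lower. Over members at the floor the median difference was 0.42 in place of 0.09 for the Slc3a2 and SLC7 light-chain branch and 0.85 in place of 0.02 for the cationic branch, where 1 gene is left, so that both exceed the cytosolic synthetases (0.30). No other count or median of the members moved by more than 1.5 times or 0.1, and 0 members were counted lower under any of these settings. No scaling moved the median difference of all genes by more than 0.1. No paired analysis was possible because each group has 1 sample. Signal near the background controls limits the 33 members within their range.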

Other observations

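Amino acid transporters of families outside the set did not share a direction. Of 16 measured genes 12 reached the floor, and the median difference was -0.19. In LysM (+) 2 of the 12 (16.7%) were counted higher and 2 lower, against 10.6% and 4.38% of all genes at the floor. Slc43a3 had 8.88 in LysM (+) and 7.10 in TB/TB, or 3.43-fold, although this protein is known as a carrier of purine nucleobases in place of amino acids. Slc16a10, the aromatic amino acid transporter TAT1, had 12.40 and 11.64 (1.69-fold). Its counterpart for branched-chain amino acids, Slc43a2 (LAT4), was lower, at 14.18 and 14.99 (1.74-fold). Slc6a13, a carrier of GABA and taurine, was lower at 6.79 and 7.80, the former within the control range.

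Genes that report amino acids to the growth kinase mTORC1 at the lysosome were also divided. Of 19 measured genes 17 reached the floor, and the median difference was 0.16. Of the 17 at the floor 1 (5.88%) was counted higher and 1 lower, against 10.6% and 4.38% of all genes at the floor. Lamtor1, which anchors the Ragulator complex to the lysosome, had 10.52 in LysM (+) and 9.87 in TB/TB (1.57-fold). Rragd, a Rag GTPase, had 7.62 and 8.22 (1.51-fold lower). Mtor itself had 10.49 and 10.27.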
